A study of Mus musculus with 14 samples.

Results

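The genes described here are the 9 of the inhibin, activin, follistatin and anti-Müllerian hormone (AMH) system in granulosa cells (GCs): the subunit genes Inha, Inhba and Inhbb, the activin-binding protein gene Fst, the hormone gene Amh with its receptor gene Amhr2, and the activin receptor genes Acvr1b, Acvr2a and Acvr2b. They were listed by gene name, and all 9 were found among the 55414 genes of the count table. RNA-seq had been run on GCs of antral follicles from 12-wk-old female mice, with about 50 cells pooled in a library. The db/db group (4 libraries) carried the Leprdb allele on both chromosomes and lacked a working long leptin receptor, and the ob/ob group (3 libraries) carried the Lepob allele on both chromosomes and lacked leptin. Each line had its own lean control group of sibling mice, CT db with 4 libraries and CT ob with 3. Both mutations are present in every cell of the body, so a difference need not arise in the GCs. The labels call the controls wild type, while the column names of the table read as heterozygous, and which holds is unsettled here. Libraries are numbered below in the order of the table, and these numbers are names only. The labels do not say whether each library came from its own mouse, so p-values measure the spread between libraries.

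Inhibins and activins are dimers built from a shared set of subunits. An alpha subunit (Inha) joined to a beta subunit (Inhba or Inhbb) makes inhibin, which restrains the release of follicle-stimulating hormone from the pituitary, whereas a pair of beta subunits makes activin, which promotes it and also acts within the follicle. Activin binds a type II receptor (Acvr2a or Acvr2b) that recruits a type I receptor such as Acvr1b, and the signal passes through SMAD2 and SMAD3. Follistatin (Fst) captures activin and keeps it from its receptors. AMH is made by GCs of growing follicles, most of all in preantral and small antral follicles, and signals through its own type II receptor, Amhr2.

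In the mouse genome GRCm39, Inha (ENSMUSG00000032968) lay at chr1:75482196-75489223 and Inhbb (ENSMUSG00000037035) at chr1:119343193-119350021. Inhba (ENSMUSG00000041324) lay at chr13:16186373-16206206 and Fst (ENSMUSG00000021765) at chr13:114588731-114595521. Amh (ENSMUSG00000035262) lay at chr10:80641077-80643482 and Amhr2 (ENSMUSG00000023047) at chr15:102353769-102363074. The receptor genes were at chr15:101071921-101111565 for Acvr1b (ENSMUSG00000000532), chr2:48703743-48793283 for Acvr2a (ENSMUSG00000052155) and chr9:119231103-119271213 for Acvr2b (ENSMUSG00000061393).

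The 250 bases before the transcription start are shown for the beta subunit genes Inhba and Inhbb and for Amhr2, because the levels of Inhba and Inhbb rose and fell together from library to library while Amhr2 ran opposite to Inhba. The sequences are RefSeq's, in build GRCm38.p6 (windows were found for 7 of the 9 genes), and read 5′ to 3′ on the strand of the gene. Those of Inhba lie at chr13:16011601-16011850 on the plus strand, of Inhbb at chr1:119422249-119422498 on the minus strand and of Amhr2 at chr15:102445117-102445366 on the plus strand. Capitals mark CAAGGTCA, an extended half-site of the kind read by the NR5A nuclear receptors, which holds the shorter half-site AGGTCA.
Inhba: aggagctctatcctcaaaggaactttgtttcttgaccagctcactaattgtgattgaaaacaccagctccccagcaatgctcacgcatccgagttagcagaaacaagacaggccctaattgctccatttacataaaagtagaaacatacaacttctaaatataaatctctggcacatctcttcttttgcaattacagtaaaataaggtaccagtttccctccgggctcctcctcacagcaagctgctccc
Inhbb: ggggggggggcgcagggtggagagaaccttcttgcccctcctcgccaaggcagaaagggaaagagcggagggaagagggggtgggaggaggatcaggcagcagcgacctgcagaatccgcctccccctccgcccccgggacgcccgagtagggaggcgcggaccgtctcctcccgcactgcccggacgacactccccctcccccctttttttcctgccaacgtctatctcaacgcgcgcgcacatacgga
Amhr2: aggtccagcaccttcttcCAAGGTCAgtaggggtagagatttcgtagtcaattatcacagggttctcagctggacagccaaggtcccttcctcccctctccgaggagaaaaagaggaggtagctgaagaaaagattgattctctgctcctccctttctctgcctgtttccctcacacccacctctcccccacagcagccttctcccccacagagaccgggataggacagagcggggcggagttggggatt
Both strands of the 7 windows were searched for AGGTCA, for CAAGGTCA and for the cyclic AMP response element TGACGTCA. AGGTCA was found in Inha, 69 to 64 bases before the start, and in Amhr2, 230 to 225 bases before it, where it was part of CAAGGTCA. TGACGTCA was in none of the 7. Among 32851 mouse promoters of this length, 14.02% held AGGTCA, 1.33% held CAAGGTCA and 1.55% held TGACGTCA. A match is a run of letters and not a mapped site.

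The mutated genes were barely read and check no label: Lepr, of which the db mutation leaves other isoforms in place, gave at most 6 counts in any library of the db model and 3 to 17 in the ob model, and Lep had 0 counts in all but ob/ob 3 (3 counts) and CT ob 3 (2 counts). The libraries held between 2204686 and 8367593 counts. Depth differed between mutants and controls. The deepest db/db library (3059777 counts) was below the shallowest CT db library (3624237), and the group means stood at a ratio of 0.627 (p = 0.0286 by a two-sided exact permutation test, which can give no smaller p with 4 against 4). In the ob model the order was the other way, with ob/ob from 5306632 up and CT ob up to 4847166 (ratio 1.68, exact permutation p = 0.1, the lowest possible with 3 against 3). Levels are given as CPM (counts scaled to a common library total), scaled between libraries by the trimmed mean of M-values (TMM), and 3 counts, the limit that a count of 0 allows, correspond to 0.369 to 1.30 CPM by counting error alone.

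The label of the cells fitted their markers. All 8 GC markers were read in every group, with a summed level of 15713 ± 1065 CPM (SD, n = 4) in db/db, 18774 ± 3555 (n = 4) in CT db, 13079 ± 1098 (n = 3) in ob/ob and 7732 ± 589 (n = 3) in CT ob, most of it from the gap junction gene Gja1. Red blood cell genes were near 0 (at most 0.7 CPM in sum), macrophage genes summed to at most 24.3 CPM and endothelial genes to at most 31.4 CPM. Oocyte transcripts varied most. The sum of their 9 markers ran from 5.5 to 65.4 CPM in db/db and from 2.8 to 251.5 CPM in CT db, and reached 720.8 CPM in ob/ob (lowest 136.7) and 1082 CPM in CT ob (lowest 68.3), with Gdf9 the most abundant. The markers of theca and steroidogenic interstitium summed to 12.05 to 504.7 CPM and were highest in db/db 1, while luteal markers (up to 277 CPM) and stromal markers (up to 81.0 CPM) were highest in CT ob 2. Ribosomal 18S RNA took 1.10 to 24.5% of the counts and was highest in CT ob 3. These are bulk samples, in which fewer cells of a type and less RNA per cell cannot be told apart.

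The gene of the inhibin alpha subunit and that of follistatin led the system in level. Compared per kilobase of the annotated canonical transcript, as a mean over the 14 libraries, Inha stood at 1008 CPM per kb and Fst at 651. Amh (184), Inhbb (169), Amhr2 (109) and Inhba (105) formed a middle tier. The activin receptors were far lower, at 6.93 CPM per kb for Acvr2a, 1.56 for Acvr1b and 1.37 for Acvr2b. Inha was first in all 4 groups and the receptors were last in all 4, but the middle changed places. In CT ob, Amh was second at 349 ± 86.4 CPM per kb (SD, n = 3), above Inhbb at 73.0 ± 81.8 and Inhba at 13.8 ± 13.1, and beside Fst at 343 ± 37.4. In db/db, Amh was sixth at 58.0 ± 43.5 CPM per kb (n = 4), below Inhbb at 197 ± 143 and Inhba at 134 ± 144. Of the neighbours in the order over all libraries, Acvr1b and Acvr2b differed in group mean by less than the larger SD of the pair in all 4 groups. Amh and Inhbb, and Amhr2 and Inhba, did so in db/db, CT db and ob/ob but not in CT ob, where Amh was higher than Inhbb by 276 CPM per kb and Amhr2 higher than Inhba by 149. With the length of all annotated exons in place of the canonical transcript (chosen after seeing the data), the order of the 9 genes was the same, though Fst fell to 260 CPM per kb.

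**Figure D1:**
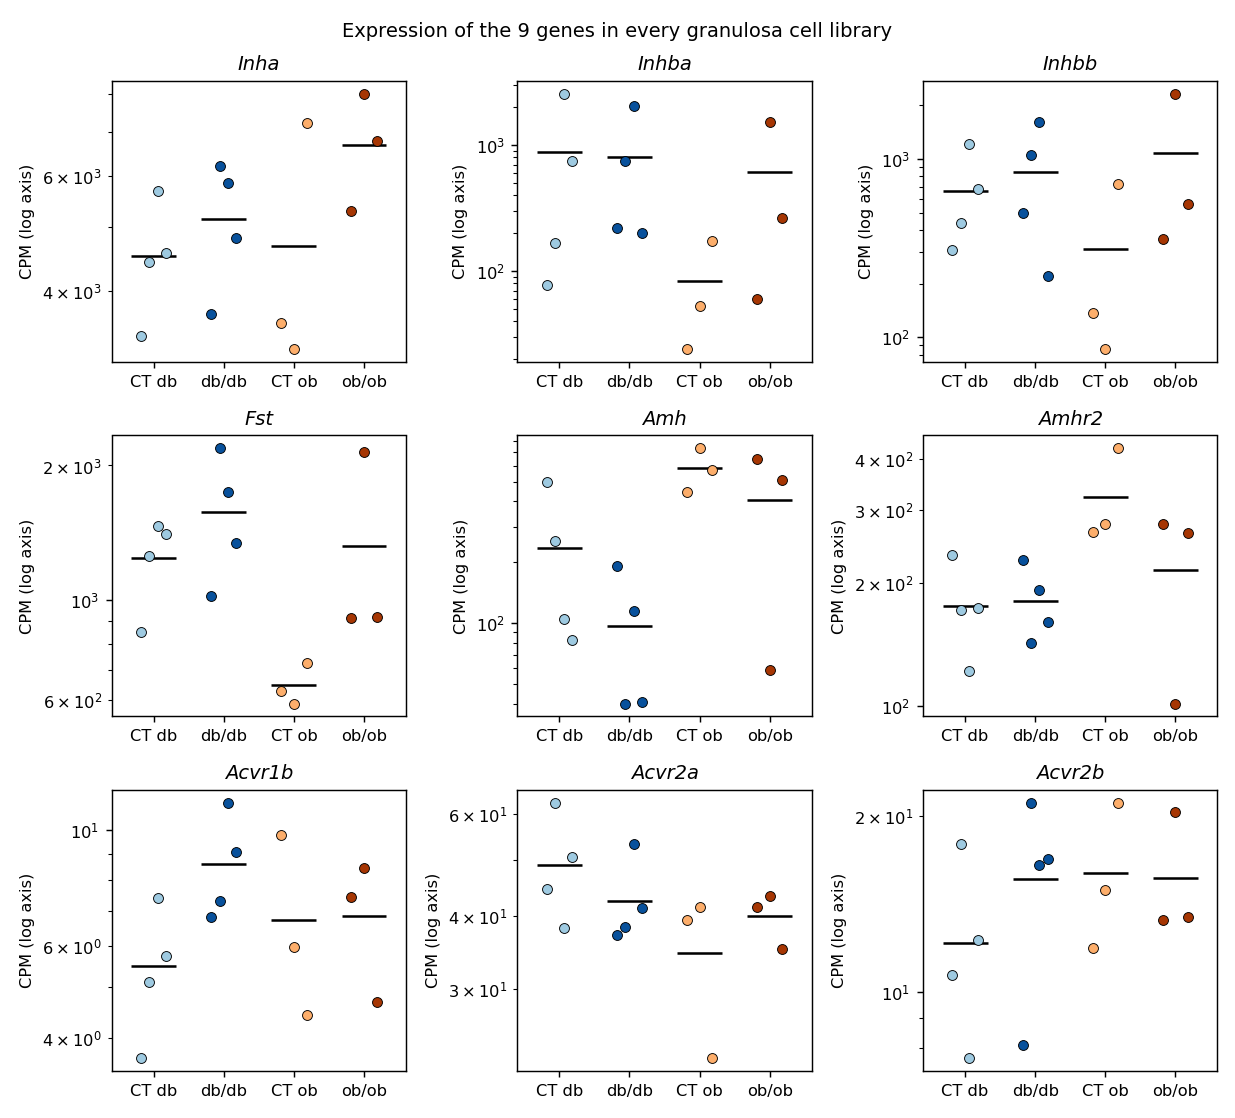
CPM of each of the 9 genes (log axis, own scale per panel) in the 4 CT db, 4 db/db, 3 CT ob and 3 ob/ob libraries, with 1 point per library and a bar at the group mean. The beta subunit genes Inhba and Inhbb and the hormone gene Amh range widely within groups, and the libraries of CT ob lie below all others for Fst.

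None of the 9 genes passed an adjusted p of 0.05 in any of the 5 comparisons (edgeR, quasi-likelihood test, Benjamini-Hochberg over all genes). This is to be read against how few genes passed at all. In db/db against CT db, 0.00884% of 11317 genes were called, and in ob/ob against CT ob 0% of 12425. Between the mutants, 0.0159% of 12586 were called, and in the test of whether the mutation acts differently in the 2 models (the interaction) 0%. Between CT ob and CT db 6.63% of 12586 genes were called, and there too no member passed. That share (834 genes) comes from one fit of all 4 groups and fell to 112 genes without CT ob 3. In fits of the 2 groups only, 3 of 11876 genes were called between the controls and 4 of 11494 between the mutants, with no member among them. By an unadjusted p under 0.05, 0 of the 9 were past it in db/db against CT db (7.59% of all genes), 2 in ob/ob against CT ob (8.16%), 1 between the mutants (8.18%), 4 between the controls (26.9%) and 0 in the interaction (8.11%). The median log2 fold change of the 9 was 0.18, 0.20, 0.01, 0.06 and 0.41 in these comparisons in that order, and of all genes tested 0.01, -0.04, -0.01, 0.06 and -0.04. Taking as a second rule that no library of one group lies within the range of the other, 0 of the 9 members met it in db/db against CT db, where 4.12% of all genes did (1.80% higher, 2.32% lower). In ob/ob against CT ob 1 met it, against 15.7% of all genes (8.05% higher, 7.63% lower), between the mutants 0, against 9.92% (5.55% higher, 4.37% lower), and between the controls 2, against 21.2% (9.93% higher, 11.2% lower). DESeq2 in place of edgeR called 44 of 11317 genes, 86 of 12425, and 72, 1563 and 72 of 12586 in those 5 comparisons. Among them were 2 members, Fst and Amhr2, both between the controls, where 1563 genes were called.

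**Figure D2:**
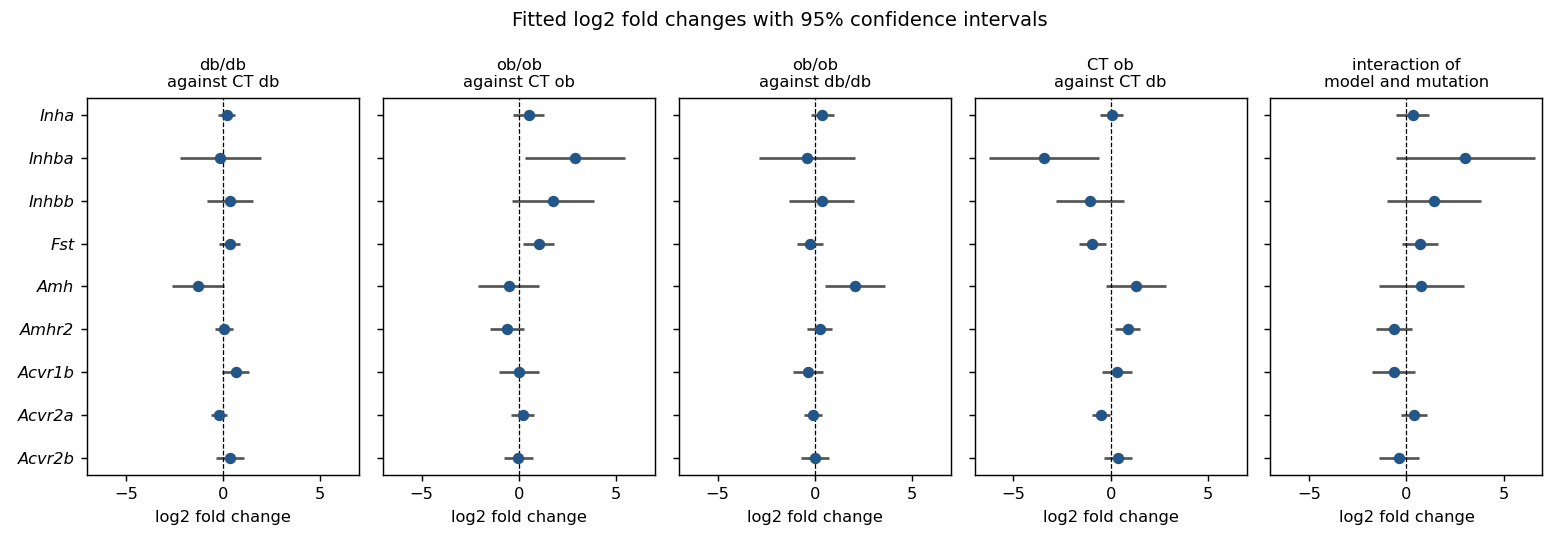
Log2 fold change of each gene from edgeR (point) with its 95% confidence interval (line) in the 5 comparisons, where a positive value means higher in the group named first or, for the interaction, a larger change in the ob model. Intervals for Inhba, Inhbb and Amh are wider than those for Inha or the activin receptors in every comparison.

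Inha varied least among the subunits. It stood at 3691, 6211, 5848 and 4822 CPM in db/db and at 3405, 4421, 5679 and 4563 CPM in CT db, and the groups overlapped. The log2 fold change was 0.18 ± 0.21 (SE), with an adjusted p of 0.853. In the ob model it stood at 5299, 8009 and 6777 CPM in ob/ob against 3572, 3255 and 7231 CPM in CT ob. CT ob 1 and CT ob 2 were lower than every ob/ob library and CT ob 3 was not, so these groups overlapped too (log2 fold change 0.50 ± 0.35, adjusted p = 0.723). The size of that fold change leans on CT ob 3, which raised the CT ob mean. Between the controls Inha differed by 0.06 ± 0.28 on the log2 scale (adjusted p = 0.910), a difference whose sign turned with library size alone. Obsl1 on the opposite strand shares 1099 bases of exon with Inha, and whether strand was used in counting is not given in the sources used here.

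Inhba, the beta A subunit gene, spanned 106-fold between the lowest and the highest library. It was at 219, 751, 2049 and 202 CPM in db/db and at 77.7, 167, 2548 and 750 CPM in CT db. In ob/ob it was at 60.4, 1521 and 261 CPM and in CT ob at 24.0, 52.8 and 172 CPM. One library in each of the first 3 groups stood far above the rest (db/db 3, CT db 3 and ob/ob 2), and no group stood clear of its counterpart. Its SD of log2 CPM within groups was 1.94, the highest among the 396 genes whose mean CPM was within 2-fold of its own (their median was 0.27) and 29th of 12586 genes in all. Against this spread, the log2 fold change was -0.14 ± 0.95 in db/db (adjusted p = 0.980) and 2.88 ± 1.13 in ob/ob (adjusted p = 0.604, 95% confidence interval 0.30 to 5.47). The value for ob/ob fell to 0.96 without ob/ob 2. For CT ob against CT db it was -3.42 ± 1.33 (adjusted p = 0.119), and -2.02 without CT db 3. The interaction was 3.03 ± 1.68 (adjusted p = 0.650).

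Inhbb, the beta B subunit gene, followed the same libraries. It was at 500.0, 1055, 1612 and 220.3 CPM in db/db, at 309, 436, 1208 and 676 CPM in CT db, at 354, 2319 and 557 CPM in ob/ob and at 137, 85.7 and 719 CPM in CT ob. The highest library of each group was the one highest for Inhba in that group, in all 4 groups, and all groups overlapped. The log2 fold change was 0.36 ± 0.53 in db/db (adjusted p = 0.897), 1.77 ± 0.92 in ob/ob (adjusted p = 0.656) and -1.06 ± 0.82 between the controls (adjusted p = 0.417). In ob/ob it was 0.54 without ob/ob 2 and 3.27 without CT ob 3, and between the controls -2.57 without CT ob 3. Its SD within groups was 1.27, rank 4 among 316 genes of like level. The other beta subunit genes, Inhbc and Inhbe, had 0 counts in all 14 libraries.

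Fst, the activin trap, had its 3 lowest values in CT ob. It was at 628, 588 and 725 CPM in CT ob, below all 11 other libraries. In ob/ob it was at 914, 2144 and 918 CPM, so the groups of the ob model did not overlap. The log2 fold change was 1.03 ± 0.35 (adjusted p = 0.561, 95% confidence interval 0.22 to 1.83), and 0.50 without ob/ob 2. Of the 9 members, Fst alone had groups that stood apart in that comparison. The summed GC markers also stood apart there, at 11861 to 13993 CPM in ob/ob and 7264 to 8394 CPM in CT ob, most of it Gja1 (means 11013 and 6072 CPM). Taken one by one, the 8 markers went both ways. Fshr, Cyp19a1, Esr2 and Gja1 were higher in every ob/ob library than in any CT ob library, Wt1 was lower (means 52.1 and 208 CPM), and 3 overlapped, Foxl2 among them (84.8 and 113 CPM). The endothelial markers stood apart the other way, at 7.02 to 8.03 CPM in sum in ob/ob and 8.84 to 31.4 CPM in CT ob, with 1 of the 5 genes apart by itself. The sums of stromal, luteal and theca markers overlapped. Of their genes, the stromal Pdgfra (means 3.95 and 13.9 CPM) and 1 luteal gene were lower in every ob/ob library, and 1 theca gene was higher. The mean share of 18S RNA was 3.96% in ob/ob and 12.4% in CT ob, with overlapping libraries (exact permutation p = 0.3). The part of these markers and of the 18S share in the Fst difference was not tested. In the db model Fst was at 1023, 2184, 1748 and 1339.7 CPM in db/db and 848, 1253, 1465 and 1409 CPM in CT db, with overlap (0.33 ± 0.24, adjusted p = 0.763). For CT ob against CT db the log2 fold change was -0.94 ± 0.32 (adjusted p = 0.0832), without overlap. That difference between the controls passed with DESeq2 (adjusted p = 0.0241), where 1563 of 12586 genes passed. In edgeR it passed without ob/ob 2 (adjusted p = 0.0374), a library of neither control group. Over the fits with 1 library left out, 112 to 1196 genes were called between the controls.

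Amh, the hormone itself, ran from 40.0 to 732 CPM, an 18.3-fold range. It was at 192, 40.0, 115 and 40.6 CPM in db/db and at 498, 256, 104 and 82.2 CPM in CT db. The libraries db/db 2 and db/db 4 were lower than every CT db library, and db/db 1 and db/db 3 lay within the CT db range. In db/db the log2 fold change was -1.29 ± 0.60, with an adjusted p of 0.667 and a 95% confidence interval from -2.60 to 0.03, and it was -0.62 without CT db 1. In the ob model Amh was at 647, 58.6 and 512 CPM in ob/ob against 445, 732 and 570 CPM in CT ob, and the single low library, ob/ob 2, was the one with the highest Inhbb of all 14. The log2 fold change was -0.52 ± 0.68 (adjusted p = 0.851), and -0.0118 without ob/ob 2. For ob/ob against db/db the log2 fold change of Amh was 2.07 ± 0.73 (adjusted p = 0.416, 95% confidence interval 0.51 to 3.64), with ob/ob 2 inside the db/db range. Its SD within groups, 1.25, ranked 3 among 1123 genes of like level. The sums of oocyte markers did not overlap between ob/ob and db/db, with no ob/ob library below 136.7 CPM in sum and no db/db library above 65.4. The GC sums did not overlap either, at 11861 to 13993 CPM in ob/ob and 14745 to 17198 CPM in db/db. The part of both in the Amh difference was not tested.

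Amhr2, the receptor that binds AMH, was steadier. It was at 227, 143, 192 and 160 CPM in db/db and 234, 172, 122 and 174 CPM in CT db, which covered the same range (log2 fold change 0.04 ± 0.20, adjusted p = 0.973, 95% confidence interval -0.41 to 0.49). It was at 278, 101.5 and 265 CPM in ob/ob and at 265, 278 and 424 CPM in CT ob. All 3 CT ob libraries were above all 4 CT db libraries, the second member without overlap between the controls (0.88 ± 0.31, adjusted p = 0.0886). This too passed with DESeq2 (adjusted p = 0.0491), where 1563 of 12586 genes passed. In edgeR it passed without ob/ob 2 (adjusted p = 0.0369), which is in neither control group. Between these controls the share of 18S RNA was 6.89, 5.997 and 24.5% in CT ob against 8.12, 1.61, 4.69 and 3.43% in CT db, and its part in the differences of Fst and Amhr2 was not tested. The lower sum of GC markers in CT ob, whose part was not tested either, was mostly that of Gja1 (means 6072 CPM in CT ob and 16894 in CT db). Fshr, Esr2 and Gja1 were lower in every CT ob library than in any CT db library, Wt1 was higher (means 208 and 62.7 CPM), and the other 4 overlapped, with Foxl2 at 113 and 76.6 CPM and Hsd17b1 at 755 and 749 CPM. The endothelial sum was higher in every CT ob library (8.84 to 31.4 CPM) than in any CT db library (3.10 to 8.24 CPM), with 2 of its 5 genes apart by themselves, and its part was not tested. In ob/ob against CT ob the log2 fold change of Amhr2 was -0.59 ± 0.38 (adjusted p = 0.707). That value leans on ob/ob 2, at 101.5 CPM, where every other library of both groups was at about 265 CPM or above.

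The activin receptor genes were read at low depth, with 13 to 61 counts per library for Acvr1b, 67 to 313 for Acvr2a and 19 to 147 for Acvr2b. Acvr1b, the type I receptor, was at 6.82, 7.31, 11.3 and 9.06 CPM in db/db and 3.66, 5.11, 7.42 and 5.73 CPM in CT db, where 2 of 4 mutant libraries were within the control range (log2 fold change 0.65 ± 0.32, adjusted p = 0.675). It was at 7.42, 8.45 and 4.68 CPM in ob/ob and at 9.77, 5.98 and 4.42 CPM in CT ob, with overlap. The type II receptor genes overlapped between mutants and controls in both models. Acvr2a was at 37.1, 38.3, 53.3 and 41.2 CPM in db/db, at 44.5, 62.6, 38.2 and 50.5 CPM in CT db, at 41.4, 43.3 and 35.1 CPM in ob/ob and at 39.3, 41.4 and 22.8 CPM in CT ob. Acvr2b was at 8.10, 21.1, 16.5 and 16.9 CPM in db/db, at 10.7, 17.9, 7.69 and 12.3 CPM in CT db, at 13.3, 20.4 and 13.4 CPM in ob/ob and at 11.9, 14.9 and 21.1 CPM in CT ob. For CT ob against CT db the log2 fold change of Acvr2a was -0.50 ± 0.22 (adjusted p = 0.170). Exons on the opposite strand overlap Acvr2a by 3081 bases (Orc4) and Acvr2b by 1471 bases (4930516B21Rik), so part of these counts could belong to the other gene.

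Ratios between members within a library do not depend on scaling between libraries. Per kilobase, the ratio of Inhba to Inha was lowest at 0.00577 in CT ob 1 and highest at 0.385 in CT db 3. Within groups it reached 0.300 in db/db and 0.163 in ob/ob, but 0.0205 at most in CT ob. The ratio of Fst to the sum of Inhba and Inhbb ran from 1.10 in CT db 3 to 10.8 in CT ob 2 by canonical transcript lengths. By the length of all annotated exons it was above 1 in 10 libraries and below 1 in 4, which were CT ob 3 (0.803), ob/ob 2 (0.603), db/db 3 (0.559) and CT db 3 (0.486). The ratio of Amh to Amhr2 was 1.003, 0.333, 0.708 and 0.301 in db/db, and below 1 elsewhere only in CT db 4 (0.562) and ob/ob 2 (0.685). The mean log2 ratio of Amh to Amhr2 was -0.95 ± 0.84 (SD, n = 4) in db/db and 0.34 ± 0.95 (n = 4) in CT db (p = 0.114 by a two-sided exact permutation test). Of 24 tests over 6 ratios and 4 comparisons, the smallest exact p was 0.0286, the smallest these group sizes allow, for a higher share of Acvr2b to Acvr2a in CT ob than in CT db. With adjustment over the 24 no ratio was below an adjusted p of 0.571. The smallest p possible was 0.1 in ob/ob against CT ob and 0.0286 in the other comparisons. At these floors no single ratio could have passed the adjustment by itself, so the adjusted values cannot decide whether a ratio differs.

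Several members shared an order of the libraries that crossed the groups. Across the 14 libraries, log2 CPM of Inhba, Inhbb and Fst rose together, Amh and Amhr2 rose together, and Inhba and Fst ran opposite to Amh and Amhr2. The permutations for these p-values ran over all 14 libraries without regard to group, so the p-values also take in differences between groups. Inhba and Inhbb had a Pearson r of 0.884 (Spearman rho 0.890, adjusted permutation p = 0.00108 and 0.00096). Amh and Amhr2 had an r of 0.832 (rho 0.895, adjusted permutation p = 0.00144 and 0.00096), and Fst and Amh an r of -0.883 (rho -0.868, adjusted permutation p = 0.00144 and 0.00108). Of the 36 pairs of members, 9 had an adjusted p of 0.05 or less for Pearson's r, 5 positive and 4 negative. The share of such pairs among all genes is not given here. The count therefore describes the members only and does not set them apart from other genes. The positive pairs were Inha with Inhbb, Inhba with Inhbb, Inhba with Fst, Inhbb with Fst, and Amh with Amhr2, and the negative pairs joined Inhba and Fst each to Amh and Amhr2. No activin receptor was in any of the 9.

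**Figure D3:**
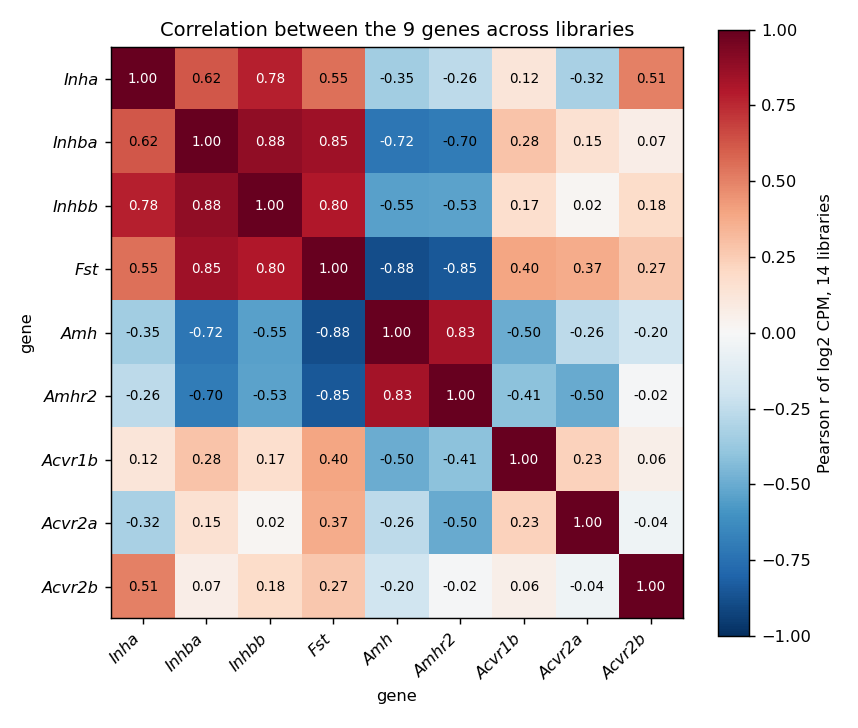
Pearson r of log2 CPM for each pair of the 9 genes over the 14 libraries, from -1 (blue) to 1 (red), with the value in each cell. Inha, Inhba, Inhbb and Fst form a positive block. It is negative against Amh and Amhr2, most weakly for Inha (-0.35 and -0.26). The strongest cell of the 3 receptor genes at the end with another gene is 0.51, for Inha with Acvr2b.

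The relations recurred within each model. Within the 8 libraries of the db model the r was 0.897 for Inhba with Inhbb, 0.658 for Amh with Amhr2 and -0.782 for Fst with Amh, and within the 6 of the ob model 0.914, 0.916 and -0.910. For all 9 pairs the sign was the same in both models. Within single groups it was not always kept. In CT ob (n = 3) r was 0.923 for Fst with Amhr2, 0.950 for Inhba with Amhr2 and 0.393 for Inhba with Amh. In db/db (n = 4) it was 0.0452 for Inhba with Amh. The other pairs of the 9 kept their sign in every group, though Amh with Amhr2 had an r of only 0.0865 in CT ob. After each gene was centred on its group means the 3 values were 0.868, 0.852 and -0.849, and without the 2 libraries farthest from the median of the first gene they were 0.867, 0.856 and -0.833. The relation of Inhba to Amh was weaker in the db model (r = -0.492) than over all libraries (r = -0.719, rho -0.684, adjusted permutation p = 0.0248 and 0.0382). No p was computed within a model.

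**Figure D4:**
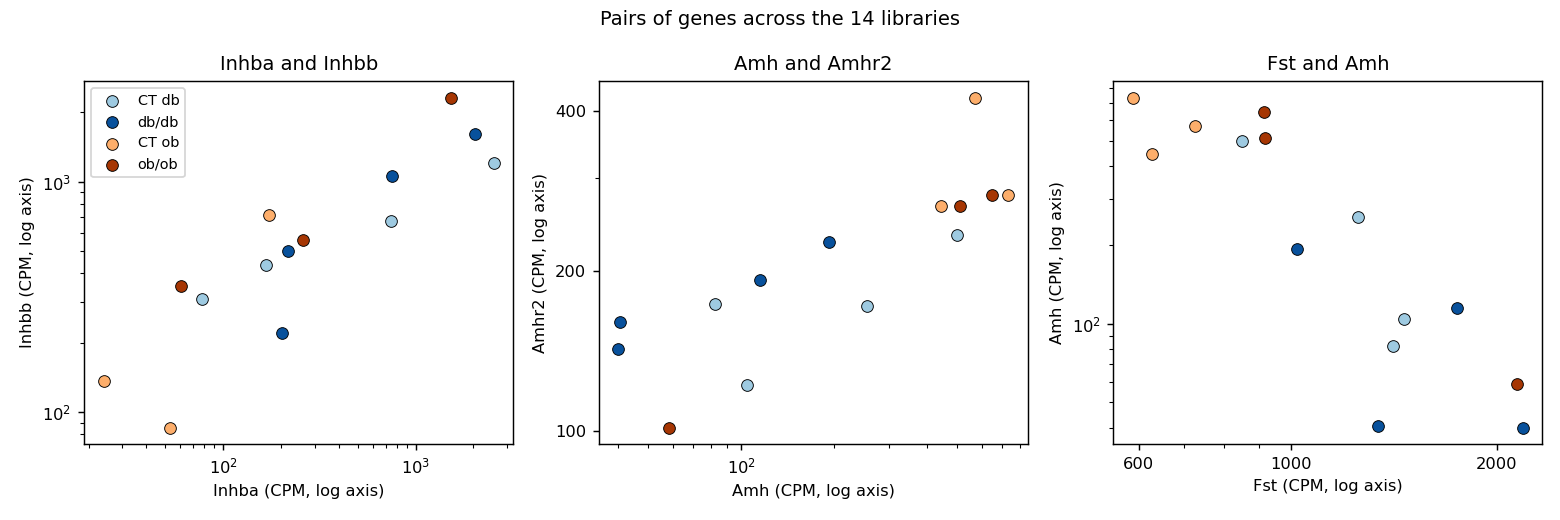
CPM of Inhba against Inhbb, Amh against Amhr2 and Fst against Amh (both axes log), with 1 point for each of the 14 libraries coloured by group. The first 2 pairs rise together and the third falls, and libraries of mutants and controls both occur at each end of the first trend.

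Other measures of the libraries were set against the same genes. The share of 18S RNA had an r of -0.696 with Fst (rho -0.653, adjusted permutation p = 0.0853 and 0.180 over 24 relations), of 0.685 with Amhr2 (rho 0.640, adjusted permutation p = 0.0853 and 0.180) and of 0.620 with Amh (rho 0.613, adjusted permutation p = 0.165 and 0.180). Without the 2 libraries farthest in 18S share the r was -0.599 for Fst, 0.503 for Amhr2 and 0.496 for Amh, and it kept its sign in both models for these genes. Its part in the pattern was not tested. For Inhba and Inhbb the r with 18S share was -0.329 and -0.250. None of the 24 relations, which also covered oocyte markers, theca and interstitium markers and total count, had an adjusted p of 0.05 or less, and the r of Inhba with oocyte markers turned from 0.563 in the db model to -0.609 in the ob model.

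By the highest Pearson r over the 14 libraries, the genes most like each member were as follows, given as a description since they were picked out of 12586. Inhba was followed most closely by Gch1 (r = 0.942), Tmem45a (0.935) and Gm47475 (0.930), and Inhbb by Masp1 (0.936) and Rian (0.929). For Fst they were Igsf3 (0.970), Itga2 (0.961) and Rnf7 (0.961), and for Inha Usf3 (0.891), Septin4 (0.882) and Jakmip3 (0.876). Amh was most like Smim41 (0.956), Pdpn (0.931) and Hcn4 (0.931), and Amhr2 most like Lrp4 (0.954), Igdcc4 (0.946) and Shbg (0.926). Acvr2a was most like B230307C23Rik (0.931), Zfp952 (0.923) and Plk4 (0.922). These names moved with the measure. By Spearman's rho none of the 3 genes remained for Inhba or Amhr2. On that measure 1 remained for each of Inha, Inhbb, Amh and Acvr2a, and 2 for Fst. By Pearson's r after centring on group means, none remained for Inha or Inhbb, and 1 for each of Inhba, Fst and Acvr2a. Acvr1b and Acvr2b, with a mean under 20 CPM, were left out.

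Beyond the 9 members, 74 genes of the wider pathway were listed, comprising other ligands, binding proteins and inhibitors, other receptors, SMADs and their partners, proteases that cut the precursors, regulators of the inhibin and AMH genes, and response genes. In db/db against CT db 0 of the 54 tested passed an adjusted p of 0.05, in ob/ob against CT ob 0 of 57, between the mutants 0 of 57 and in the interaction 0 of 57. By an unadjusted p under 0.05 the counts were 4, 11, 7 and 6, beside 7.59%, 8.16%, 8.18% and 8.11% of all genes. Between the controls 22 of 57 had an unadjusted p under 0.05, beside 26.9% of all genes, and 5 passed the adjusted one, 1 higher and 4 lower in CT ob, against 2.24% higher and 4.39% lower among all genes.

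The 4 lower in CT ob were 3 receptor genes and the gene of a ligand. Bmpr2, a type II receptor for bone morphogenetic proteins, was at 255, 383 and 321 CPM in CT ob and 423, 1296, 719 and 918 CPM in CT db (log2 fold change -1.39 ± 0.38, adjusted p = 0.0446). Tgfbr1, the type I receptor of TGF-beta, was at 80.3, 88.7 and 69.7 CPM against 116, 146, 118 and 164 CPM (-0.77 ± 0.20, adjusted p = 0.0342). For both, every CT ob library was below every CT db library. The ligand gene Tgfb3 was at 11.7, 19.9 and 18.02 CPM against 27.6, 29.8, 63.2 and 55.4 CPM (-1.41 ± 0.34, adjusted p = 0.0291). Fshr, which encodes the receptor of follicle-stimulating hormone, was at 36.4, 119.8 and 90.8 CPM against 184, 254, 332 and 314 CPM (-1.72 ± 0.35, adjusted p = 0.0163). Those 2 did not overlap between the controls either. The gene higher in CT ob was Pcsk6, a protease that cuts TGF-beta family precursors, at 30.3, 11.5 and 23.1 CPM against 3.66, 1.92, 3.02 and 2.73 CPM (2.94 ± 0.51, adjusted p = 0.00986). All 5 calls used the spread of all 4 groups, and in a fit of the 2 control groups alone none passed (adjusted p from 0.0524 to 0.0763). With library size alone in place of TMM, Bmpr2 (adjusted p = 0.0677) and Tgfbr1 (adjusted p = 0.0706) did not pass. Leaving out 1 library in turn, Pcsk6 was called in all 14 fits and Fshr in 13 (not without CT ob 3, adjusted p = 0.0570). Tgfb3 was called in 10 (lost without CT db 3, CT db 4, CT ob 1 or CT ob 3, adjusted p from 0.0599 to 0.0781), Tgfbr1 in 10 (lost without CT db 2, CT db 4, CT ob 1 or CT ob 3, from 0.0715 to 0.115) and Bmpr2 in 4 (kept without db/db 1, CT db 1, ob/ob 2 or ob/ob 3). Mouse line and model cannot be told apart between the controls. Of the GC markers, Gja1, the most abundant, was also lower in CT ob (-1.47 ± 0.19, adjusted p = 0.00221), a call lost in the fit of the 2 control groups alone (adjusted p = 0.0524). Besides Gja1 and Fshr none of the 8 passed, and Wt1 (1.74 ± 0.65, adjusted p = 0.107) and Foxl2 (0.57 ± 0.22, adjusted p = 0.118) had values on the side of higher in CT ob.

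**Figure D5:**
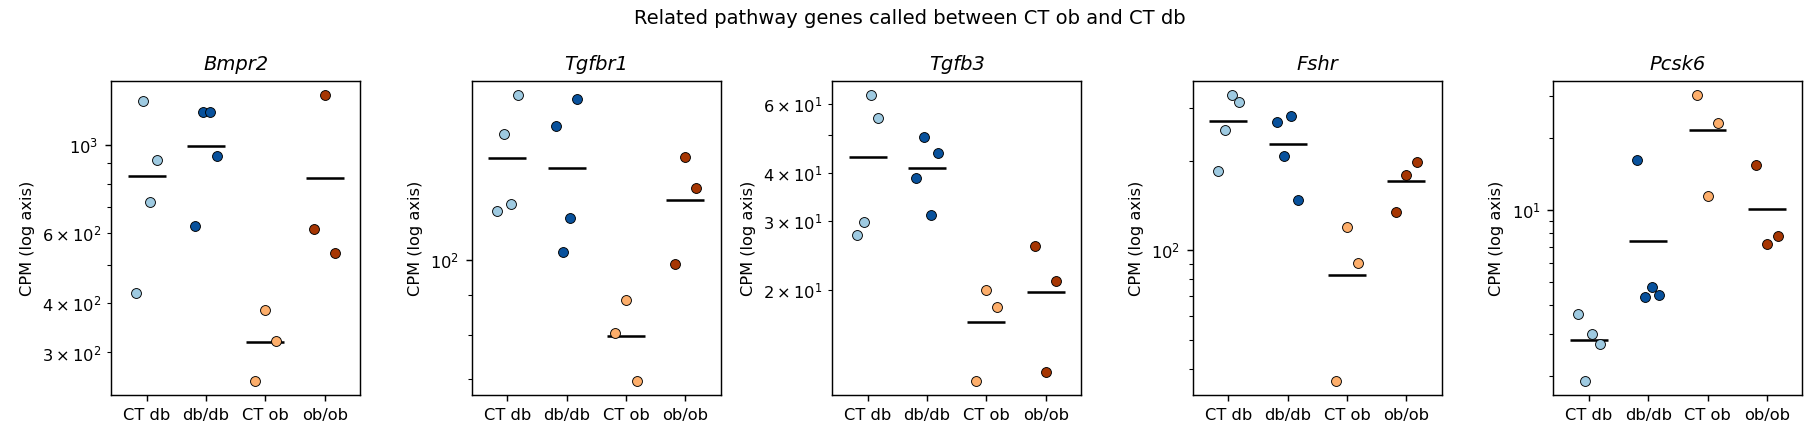
CPM (log axis, own scale per panel) of the 5 related genes called between CT ob and CT db, with 1 point per library and a bar at the group mean. CT ob lies below CT db for Bmpr2, Tgfbr1, Tgfb3 and Fshr and above it for Pcsk6.

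Per kilobase, the most abundant genes of these lists were as follows, as means over the 14 libraries. Among ligands they were Gdf9 (33.4 CPM per kb) and Bmp15 (13.2), both made by the oocyte, though not in every group. In db/db Tgfb3 (9.90) and Bmp6 (5.87) stood above Gdf9 (5.02) and Bmp15 (1.80), and in CT db Tgfb3 (10.6) was above Bmp15 (7.81). Among binding proteins and inhibitors Twsg1 (68.9) led, and among receptors they were Bmpr2 (59.7) and Bmpr1b (49.8). Smad2, which carries the activin signal, stood at 53.3 CPM per kb and Skil, a repressor of SMAD signalling, at 25.7. By the length of all annotated exons Smad2 was at 7.80, below Smad4 (19.5) and Skil (17.8), while the 2 leading genes of each other list were the same. The proteases Bmp1 (9.92) and Pcsk5 (8.17), the regulators Esr2 (121) and Fshr (82.1) and the response genes Id3 (524) and Id1 (46.0) led the rest over the 14 libraries. In CT ob the 2 highest included Wt1 (62.3) in place of Fshr (34.4, the seventh of the regulators), Furin (5.67) in place of Pcsk5 (5.06) and Smad4 (18.2) in place of Skil (14.5), and in db/db Id2 (43.3) in place of Id1 (33.6). Smad2 was at 79.7 to 104 CPM in db/db and 84.9 to 93.2 CPM in CT db, and the 95% confidence interval of its log2 fold change ran from -0.29 to 0.29 (adjusted p = 0.998).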

How the data were processed

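Counts per gene were deposited for 14 libraries of poly(A) RNA from about 50 pooled GCs. The authors trimmed and aligned single reads and counted them per gene, and the submitters' processing notes name FastQC, Trim Galore 0.6.2, HISAT2 2.1.0 and build GRCm38, while the study's methods name STAR and GRCm39. Strand and multimapping settings are not given in the sources used here. Of 55414 gene IDs, 54749 (98.8%) were matched to symbols. Counts were fitted in edgeR 4.0.16 (R 4.3.3) with TMM factors, filterByExpr (minimum count 10, minimum total 15) and the quasi-likelihood F test, and calls made at 0.05 or less after Benjamini-Hochberg adjustment over all genes tested. Each mutant was fitted with its own controls, and all 4 groups together for the other contrasts. The fit was tested on simulated counts, and the outcome is not given here. Ratios used exact permutation tests after adding 0.5 count, and correlations 100000 permutations over all libraries without regard to group (scipy 1.17.1). DESeq2 1.42.0, other scalings and filters, downsampling to the smallest library total and leaving out each library were the alternatives. The members and lists were chosen with earlier results of these data known. Named genes were the 9 members, every listed gene called, the 2 highest per kilobase of each list and the 3 most correlated with each member of at least 20 CPM. Confidence intervals of fold changes are edgeR's and carry the spread between libraries, and the floor of 3 counts covers counting error only. A gene that these rules name is not reported here.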

Additional observations from a re-analysis of the deposited data

How the results depend on the processing

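The count of genes called moved with the method. In db/db against CT db, 1 gene was called, against 2 with library size alone, 44 with DESeq2, 270 without a filter, 0 with at least 10 counts in every library and 0 in one fit of 4 groups. In ob/ob against CT ob the 0 became 86 with DESeq2, 359 without a filter and 1 in one fit. Between the mutants the 2 became 72 with DESeq2, 535 without a filter, 1 with at least 10 counts and 4 with the 2 groups only. Between the controls the 834 became 261 with library size alone, 1563 with DESeq2, 1727 without a filter and 3 with the 2 groups only. The interaction's 0 became 72 with DESeq2 and 329 without a filter. Leaving out 1 library gave 1 to 4 calls in db/db against CT db (4 without db/db 3), 0 in ob/ob against CT ob, 2 to 3 between the mutants, 112 to 1196 between the controls (138 without CT db 2, 482 without CT db 3, 201 without CT db 4, 376 without CT ob 1 and 112 without CT ob 3) and 0 to 1 in the interaction (1 without db/db 1). The cause was not tested.

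Signs turned for fold changes near 0. Acvr1b in ob/ob became -0.0145 with upper-quartile scaling and -0.11 with counts downsampled to the smallest library total, which also left fewer genes tested. Acvr2b in ob/ob became 0.10 with library size alone, 0.0623 without a filter and 0.25 downsampled. Acvr2a between the mutants became 0.0736 downsampled, and Inha between the controls -0.00983 with library size alone and -0.00347 without a filter.

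With 1 library left out, log2 fold changes crossed 0 in db/db for Inhba (-1.19 to 1.26), Inhbb (-0.16 to 0.82) and Amhr2 (-0.11 to 0.21), and in ob/ob for Acvr1b (-0.21 to 0.38), Acvr2a (-0.0133 to 0.36) and Acvr2b (-0.25 to 0.23). Between the mutants they did so for Inhba (-2.32 to 0.65), Inhbb (-0.90 to 0.87), Acvr2a (-0.16 to 0.0385) and Acvr2b (-0.23 to 0.18), and between the controls for Inha (-0.42 to 0.26) and Acvr1b (-0.0656 to 0.52). Log2 ratio differences crossed 0 for Inhba to Inha in db/db (-0.47 to 0.96), Inhbb to Inha in db/db (-0.35 to 0.51) and between the mutants (-0.82 to 0.24), Inhba to Inhbb in db/db (-0.31 to 0.71) and ob/ob (-0.0643 to 0.91), Fst to Inhba plus Inhbb in db/db (-0.33 to 0.60) and between the mutants (-0.72 to 0.21), Acvr2b to Acvr2a in ob/ob (-0.58 to 0.22) and between the mutants (-0.10 to 0.34), and Amh to Amhr2 in ob/ob (-0.78 to 0.23).

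Without the filter on low counts 12 of the 45 member results passed, among them Inhba in ob/ob (adjusted p = 8.82e-23) and Amh between the mutants (1.90e-20), both from edgeR. They were 1 of 9 in db/db against CT db (0.947% of 28505 genes), 3 in ob/ob against CT ob (1.12% of 32006), 1 between the mutants, 5 between the controls and 2 in the interaction (1.54%, 4.97% and 0.947% of 34753). The filtered fits held 11317, 12425 and 12586 genes, and no member passed in them. The shares without the filter thus include many genes of very low count and are no like measure for the members. Inhba had an SD of log2 CPM within groups of 1.94, so its small p is not to be relied on. No paired analysis was possible because the columns of the count table carry no replicate numbers of the labels. The db/db libraries were the shallowest, and Acvr1b had as few as 13 counts in a library.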

Other observations

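Cyp19a1, which encodes aromatase, the enzyme that makes oestradiol, was among the GC markers and singled out after its values were seen. It was at 106 CPM in CT db 3, 105 in db/db 3 and 83.6 in ob/ob 2, and at most 32.8 CPM in the other 11 libraries. Those 3 libraries were also the 3 with the highest Inhba (2548, 2049 and 1521 CPM) and the 3 with the highest Inhbb (1208, 1612 and 2319 CPM). In CT ob, Cyp19a1 was at 10.5, 17.7 and 16.3 CPM. These values describe single libraries, and no test was made of them.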
